A study of Homo sapiens with 6 samples.

Results

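The Wnt genes described here were the rows of an nCounter table of 758 genes whose symbols begin with WNT, FZD, SFRP, DKK, AXIN or TCF7, together with LEF1, LRP5, LRP6, CTNNB1, APC and GSK3B. The rule took 22 of the 758 genes. LRP5, LRP6, CTNNB1 and APC had no row and were not analysed here. Other members of the WNT, FZD, SFRP and DKK families had no row either, so that their expression was not measured. The 22 genes comprised 8 ligands, 4 Frizzled receptors, 5 secreted antagonists, 3 parts of the cytoplasmic destruction complex and 2 transcription factors. RNA came from JIMT-1 cells, an established human HER2+ breast cancer line derived from a patient whose tumor had become resistant to trastuzumab. The control group (CTL) received PBS and the treated group received 250 µM aCT1, a peptide that mimics the C-terminal end of connexin 43, a protein of gap junctions. Both groups grew in the same serum-containing medium and were collected after 24 h. Each group held 3 samples of this 1 line, and the labels do not state whether they were separate cultures, so that every p-value measures only the spread between these samples, which may be technical. The question was which Wnt genes the cells expressed, and how SFRP1 compared with the others between CTL and aCT1.

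Wnt proteins are secreted ligands that bind Frizzled receptors and LRP co-receptors on the cell surface. Without a ligand, a cytoplasmic complex built on AXIN and APC, in which the kinase GSK3B phosphorylates beta-catenin, sends beta-catenin for degradation. With a ligand, beta-catenin accumulates and enters the nucleus, where it joins the factors of the TCF and LEF family to switch on target genes. Other Wnt ligands act through calcium and cell polarity branches that do not need beta-catenin. Secreted Frizzled-related proteins (SFRP) carry a domain like that of the receptor and bind Wnt ligands outside the cell, whereas Dickkopf proteins (DKK) act on the LRP co-receptors. In breast cancer, SFRP1 is known mainly for the silencing of its promoter by methylation.

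The values are normalized counts: barcoded probes were counted directly, 1 probe per gene, and scaled to housekeeping genes. Transcript length therefore does not enter, but the efficiency of each probe is unknown, and an order of genes below is an order of probe counts rather than of transcripts. The recovered totals lay between 1437572 and 1494919 counts per sample, and the normalization factors between 0.979 and 1.02. All 6 epithelial and HER2 markers with a row were above background, led by ERBB2 (mean of 9398) and its neighbor GRB7 (mean of 9985). Background was set, in each sample, at the mean plus 2 SD of 20 immune lineage markers, which an epithelial line should not express. This limit ranged from 35.0 to 48.4 normalized counts. A gene was called above background where it exceeded the limit in each of the 6 samples, as 431 of the 758 genes did. Of the 20 immune markers 0 did, but the limit was built from these same markers, so that this count says little about the cells. CD8A and PDCD1 exceeded the limit in 5 of the 6 samples.

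Of the 22 Wnt genes, 6 were above background, namely SFRP1, GSK3B, WNT5B, AXIN1, WNT7B and FZD7. JIMT-1 cells thus carried RNA for 2 of 8 ligands, 1 of 4 receptors, 1 of 5 antagonists, 2 of 3 destruction complex genes and 0 of 2 transcription factors at levels the panel could separate from background. The highest of them was SFRP1, the 63rd gene of the 758 by mean level, with a mean of 6151 normalized counts over the 6 samples. GSK3B followed at 4938 and ranked 82nd. WNT5B at 809, AXIN1 at 631 and WNT7B at 618 formed a middle group, and FZD7 was the lowest at 229. The values of AXIN1 and WNT7B overlapped across samples, so these 2 could not be put in order.

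**Figure D1:**
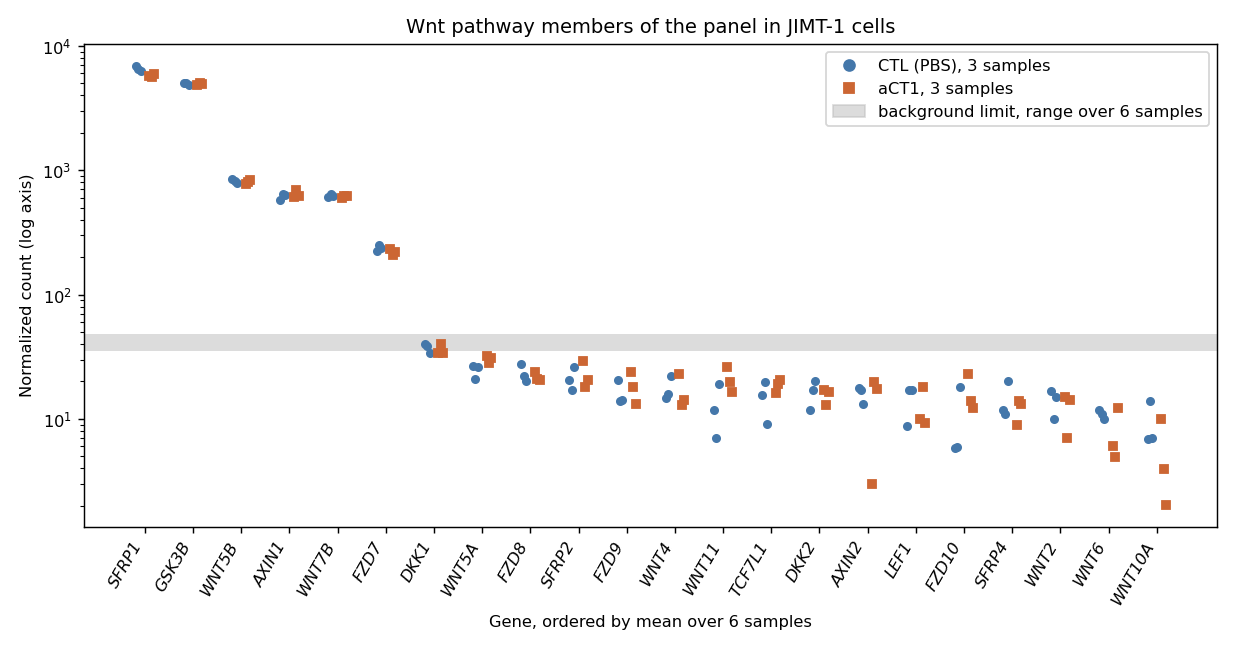
Normalized counts of the 22 Wnt genes in each of 6 JIMT-1 samples (log axis), ordered by mean, with CTL as circles, aCT1 as squares and the grey band giving the range of the background limit over samples. The 6 genes on the left lie above the band in all 6 samples, from 207 counts for FZD7 to 6898 for SFRP1, whereas the other 16 lie at or under it.

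Between CTL and aCT1, 2 of the 22 genes had an unadjusted limma p under 0.05, SFRP1 with lower values and WNT5A with higher values. Over all 758 genes this share was 6.33%, with 4.49% higher (34 genes) and 1.85% lower (14 genes) after aCT1. Median centring of the samples turned this split into 9 higher and 52 lower genes, quantile normalization gave 31 higher and 29 lower, and SFRP1 was lower under both. No Wnt gene passed after Benjamini-Hochberg adjustment over the 758 genes in limma, as against 0.132% of the table, which is a single gene. In edgeR, adjustment left 0 Wnt genes and 0% of the table. In DESeq2 it left 1 Wnt gene, SFRP1, among 3 genes or 0.396% of the table. At an unadjusted p under 0.05, edgeR and DESeq2 each gave SFRP1 alone of the 22, beside 9.37% of all genes in edgeR and 6.2% in DESeq2. The 3 CTL and 3 aCT1 values did not overlap for the same 2 genes, a share of 9.09%, beside 14.2% of all genes. The log2 fold change (aCT1 over CTL) was above 0 for 7 Wnt genes and below 0 for 15, with a median of -0.06. Over all genes it was above 0 for 446 and below 0 for 312, with a median of 0.02. In the 6 Wnt genes above background it was above 0 for 1 and below 0 for 5, with a median of -0.03. Over the 431 genes above background it was above 0 for 264 and below 0 for 167, with a median of 0.01. Among the 5, GSK3B and WNT5B changed sign when some single samples were left out. The other 16 Wnt genes were not above background.

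Among the 8 ligands with a row, WNT5B and WNT7B were above background. WNT5B, a ligand known mostly for signaling outside the beta-catenin branch, measured 844, 819.5 and 785 normalized counts in CTL 1 to 3, and 775, 806 and 827 in aCT1 1 to 3. The groups overlapped, and the log2 fold change was -0.02 (95% interval -0.14 to 0.10, limma, adjusted p = 0.970). WNT7B, a ligand that can act through beta-catenin, measured 606, 644 and 624 in CTL and 599, 616 and 622 in aCT1. Here too the groups overlapped, with a log2 fold change of -0.03 (95% interval -0.13 to 0.08, limma, adjusted p = 0.966). The ratio of the pair overlapped between groups, at 0.718, 0.786 and 0.795 WNT7B counts per WNT5B count in CTL and 0.773, 0.764 and 0.753 in aCT1 (exact two-sided permutation p = 1).

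WNT5A, the closest relative of WNT5B and the usual example of a ligand of the polarity and calcium branches, was below the background limit in every sample. It measured 26.4, 20.9 and 26.1 normalized counts in CTL, and 32.0, 27.9 and 30.7 in aCT1. All aCT1 values lay above all CTL values. The log2 fold change was 0.31 (95% interval 0.02 to 0.60, limma, unadjusted p = 0.0422, adjusted p = 0.716). From 21 to 32 counts lay behind each value, and the counting error of the difference was 0.23 (SE, log2). In edgeR, which models the counts, the unadjusted p was 0.216, and in limma with a variance trend it was 0.202. Without CTL 2, CTL 3, aCT1 1 or aCT1 3, the unadjusted limma p of WNT5A was 0.0578, 0.0507, 0.118 and 0.103, and its log2 fold change without CTL 2 was 0.20.

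The other 5 ligands, WNT2, WNT4, WNT6, WNT10A and WNT11, are members of the same secreted family, and none exceeded the limit in any sample. Their means ran from 7.31 for WNT10A to 17.2 for WNT4. WNT11 had one of the wider spreads, with 11.7, 6.98 and 19.1 in CTL and 26.0, 19.9 and 16.4 in aCT1. Its groups overlapped, and the log2 fold change of 0.81 had a 95% interval from -0.24 to 1.86 (limma, adjusted p = 0.765). WNT10A had an opposite log2 fold change of -1.01 with a 95% interval from -2.70 to 0.67 (limma, adjusted p = 0.796), resting on 2 to 14 counts a sample. With a variance trend in limma, the unadjusted p of WNT11 was 0.0477 (adjusted p = 0.509), so that WNT11 took the place of WNT5A among the genes under 0.05 in that fit.

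No Frizzled gene beyond the 4 of the list had a row. Of these, only FZD7, a receptor for several Wnt ligands, was above background. It measured 225, 250.2 and 238 normalized counts in CTL (238 ± 12.6, SD, n = 3) and 232, 207 and 221 in aCT1 (220.1 ± 12.5, SD, n = 3). The aCT1 1 value lay among the CTL values. The log2 fold change was -0.11 (SE 0.07, 95% interval -0.28 to 0.05, limma, adjusted p = 0.780), and the counting error of the difference was 0.08 (SE, log2). Median centring moved the log2 fold change to -0.21, and leaving out a sample to -0.07 (without CTL 2 or aCT1 2) at the smallest. FZD8, FZD9 and FZD10, paralogs of the same family, had means of 22.5, 17.3 and 13.2 and no value above the limit. FZD10 ranged from 5.87 in CTL 1 to 23.0 in aCT1 1, with overlapping groups and a log2 fold change of 0.88 (95% interval -0.49 to 2.25, limma, adjusted p = 0.795).

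Among the 5 antagonists with a row, only SFRP1 was above background. It measured 6898, 6500.5 and 6255 normalized counts in CTL 1 to 3 (6551 ± 324, SD, n = 3), and 5708, 5647 and 5896 in aCT1 1 to 3 (5750.2 ± 130, SD, n = 3). Every aCT1 value lay below every CTL value, with a gap between CTL 3 and aCT1 3. The log2 fold change was -0.19 (SE 0.05, 95% interval -0.32 to -0.06), a change of -12.2% with an interval from -19.7% to -3.99%. In limma, the unadjusted p was 0.0132 and the adjusted p was 0.666. Between 5667 and 7049 counts lay behind each value, and the counting error of the difference was 0.02 (SE, log2). In a bulk lysate, fewer cells with SFRP1 RNA and less SFRP1 RNA per cell cannot be told apart.

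The call on SFRP1 depended on how the variance was modeled. With an edgeR quasi-likelihood fit on the recovered counts, its adjusted p was 0.0798, and with a limma fit whose prior variance follows the level it was 0.0989. DESeq2 on the same counts gave an adjusted p of 5.23e-04. The size of the difference was alike in these 3 fits, at -0.19. Over all 20 alternatives, which also varied the samples, the genes and the scaling, the adjusted p ran from 5.23e-04 to 0.898. The highest value came from the replicate block rather than from a change in the variance model. Leaving out each sample in turn gave log2 fold changes from -0.22 without CTL 3 to -0.15 without CTL 1, the sample with the highest SFRP1 value, and the unadjusted limma p then ran from 0.0110 to 0.0438.

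The antagonists other than SFRP1 did not clear the limit. DKK1, an inhibitor that blocks LRP co-receptors, came closest, with 40.1, 38.9 and 34.2 normalized counts in CTL and 34.0, 39.9 and 33.7 in aCT1. It exceeded the limit in CTL 1, CTL 2 and aCT1 2, and its groups overlapped, with a log2 fold change of -0.07 (95% interval -0.32 to 0.18, limma, adjusted p = 0.963). SFRP2 and SFRP4, relatives of SFRP1, had means of 21.8 and 13.2, and DKK2 had a mean of 15.9. The mean of SFRP1 was therefore the only SFRP mean above the limit on this panel.

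In the cytoplasm, GSK3B, the kinase of the destruction complex with further roles in glycogen and insulin signaling, measured 5008, 5016 and 4832 normalized counts in CTL and 4864, 5015 and 4894 in aCT1. The groups overlapped, and the log2 fold change of -0.01 had the narrowest 95% interval of the 22, from -0.10 to 0.08 (limma, adjusted p = 0.974). AXIN1, the scaffold of the complex, measured 577, 648 and 637 in CTL and 614, 688 and 621 in aCT1. Its log2 fold change was 0.05 (95% interval -0.14 to 0.23, limma, adjusted p = 0.970), again with overlapping groups. AXIN2, a scaffold of the same kind and a well-known transcriptional target of beta-catenin, had a mean of 14.7 and no value above the limit. Its values were 17.6, 16.9 and 13.1 in CTL and 3.00, 19.9 and 17.4 in aCT1, and the low value of aCT1 1 rested on 3 counts.

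Neither transcription factor of the list was separable from background. LEF1, a DNA-binding partner of beta-catenin, had a mean of 13.3, and TCF7L1, a member of the family that often represses, had a mean of 16.7. Their log2 fold changes were -0.21 (95% interval -1.20 to 0.79) for LEF1 and 0.38 (95% interval -0.42 to 1.18) for TCF7L1, with adjusted limma p-values of 0.970 and 0.895. TCF7 and TCF7L2 were not among the rows that the rule took.

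The 16 genes under the limit rested on 2 to 41 counts a value, and their log2 fold changes carried counting errors (SE) between 0.195 and 0.528. At this depth, a difference such as that of SFRP1 was not detectable in any of them. The sum of the 16 was 268, 258 and 292 in CTL and 301, 271 and 267 in aCT1. The sum of the 20 immune markers was 364, 331 and 418 in CTL and 444, 356 and 346 in aCT1. CTL 3 and aCT1 1 were highest in both sums, and the part of this sample background in the differences of single low genes was not tested.

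SFRP1 was then set against the other 5 expressed Wnt genes within each sample, which removes any scaling that a sample's genes share. Relative to the geometric mean of the 5, SFRP1 was 8.60, 7.70 and 7.67 in CTL and 7.16, 6.95 and 7.29 in aCT1. The groups did not overlap, and the log2 difference was -0.16 (exact two-sided permutation p = 0.1, the smallest that 3 against 3 samples allow). Leaving out each sample in turn gave values from -0.19 to -0.11, the latter without CTL 1. Compared with GSK3B, the gene nearest in level, the ratio was 1.38, 1.30 and 1.29 in CTL and 1.17, 1.13 and 1.20 in aCT1, a log2 difference of -0.18. SFRP1 thus stood above GSK3B in all 6 samples, by a smaller margin in each aCT1 sample.

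The ratios to WNT5B, AXIN1 and WNT7B also did not overlap between groups, with log2 differences of -0.16, -0.23 and -0.16. For these 3 and for GSK3B, the exact permutation p was 0.1, or 0.125 after adjustment over the 5 ratios. All 5 ratios share the SFRP1 numerator, whose own values did not overlap between groups, so that they are not separate observations. The ratio of SFRP1 to FZD7 was 30.6, 26.0 and 26.3 in CTL and 24.6, 27.2 and 26.7 in aCT1. These groups overlapped, and the log2 difference was -0.075 (exact permutation p = 0.6). FZD7 was also the sole expressed Wnt gene other than SFRP1 whose 95% interval reached the SFRP1 value of -0.19. That value had an interval of its own, from -0.32 to -0.06, which overlapped the intervals of all 5 other genes. An exact p of 0.1 is the smallest that 3 against 3 samples allow. A difference in response between SFRP1 and any of the 5 was therefore not resolved.

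**Figure D2:**
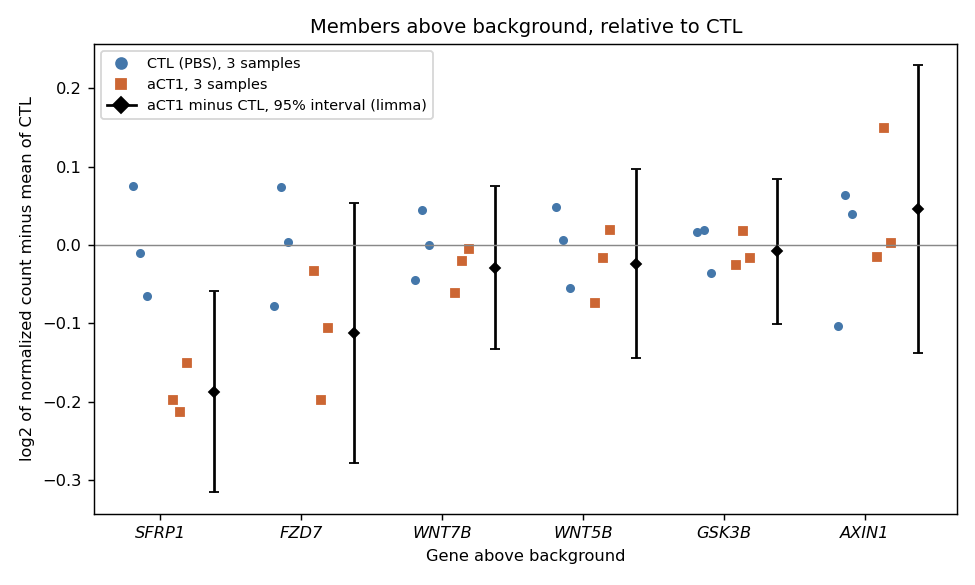
Log2 normalized count of each expressed Wnt gene minus its mean in CTL, for the 3 CTL samples (circles) and 3 aCT1 samples (squares), with the limma difference and its 95% interval as a diamond and bar. The SFRP1 interval, from -0.32 to -0.06, lies below 0, and the intervals of the other 5 genes cross 0.

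**Figure D3:**
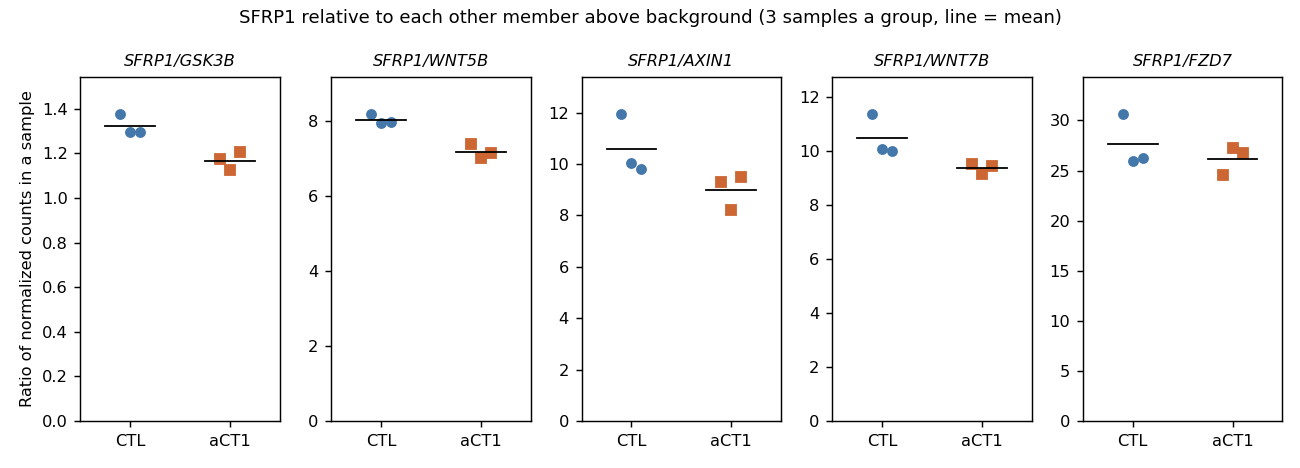
Ratio of the SFRP1 normalized count to that of each other expressed Wnt gene in each sample, with CTL as circles, aCT1 as squares and lines at the group means, on axes that start at 0. The aCT1 samples lie below all CTL samples for GSK3B, WNT5B, AXIN1 and WNT7B but not for FZD7.

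Over the whole table, 75 of 758 genes had a lower log2 fold change than SFRP1, most of them genes that were not above background. Among the 431 genes above background, 4 had a lower one, namely PAX8 (-0.28), INHBA (-0.24), PECAM1 (-0.22) and CD24 (-0.20), which were named after their values were seen. PAX8, a lineage transcription factor, INHBA, a subunit of activin A, and PECAM1, an adhesion protein of endothelium, had CTL means of 94.4, 63.5 and 72.2. CD24, a surface glycoprotein used as a marker of breast cancer cell states, measured 1552, 1288 and 1703 in CTL and 1905, 1311 and 895 in aCT1, so that its groups overlapped. Among the 233 genes with a mean of at least 1000, CD24 was the single gene with a lower log2 fold change than SFRP1. The median size of the log2 fold change in these 233 genes was 0.04.

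**Figure D4:**
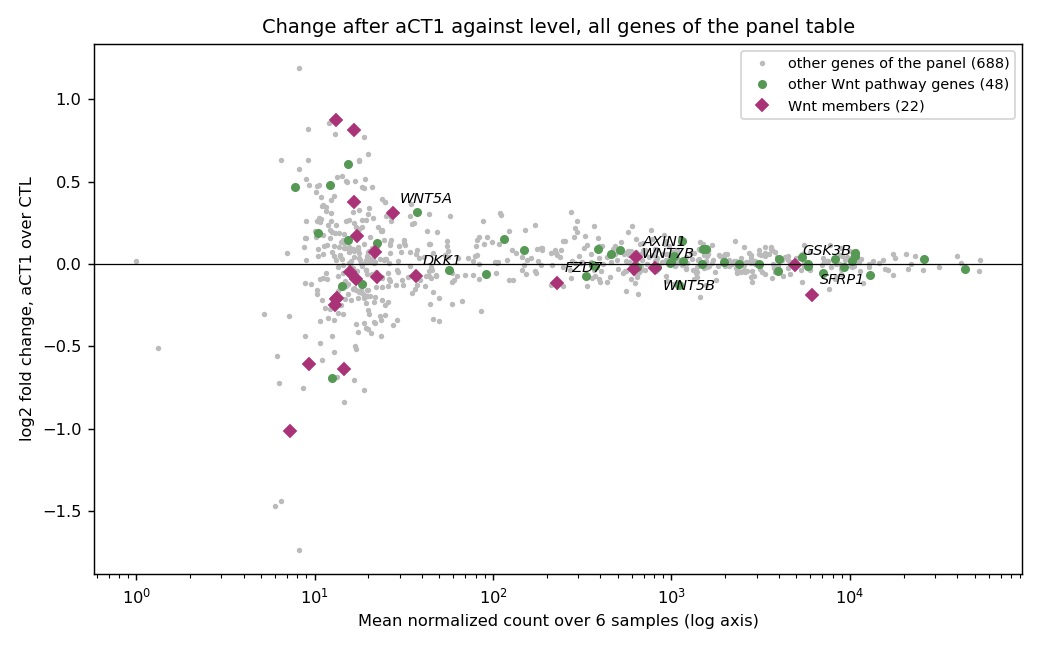
Log2 fold change (aCT1 over CTL) against mean normalized count over 6 samples (log axis) for the 758 genes, with the 22 Wnt genes as diamonds, 48 other Wnt pathway genes as larger points and the rest in grey. The spread widens toward low counts, and of the 233 genes with a mean of at least 1000, 1 lies below SFRP1 at -0.19.

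Other genes of the pathway were taken from 6 lists, which held 48 different genes with a row, 38 of them above background. Of the 48, 3 had an unadjusted limma p under 0.05 (TLE3 and MAPK10 higher, CDH2 lower), against 6.33% of all genes, so that the share was near that of the table. None passed after adjustment in limma, edgeR or DESeq2, and the median log2 fold change was 0.02, as over all genes. TLE3, a corepressor that binds TCF factors, measured 1067, 1067 and 1130 in CTL and 1158, 1243 and 1203 in aCT1. Its groups did not overlap, with a log2 fold change of 0.14 (SE 0.05, limma, unadjusted p = 0.0278, adjusted p = 0.691). Median centring lowered it to 0.05 (limma, unadjusted p = 0.392), and the unadjusted p was also over 0.05 without CTL 1, CTL 2, aCT1 2 or aCT1 3 (0.0857, 0.0856, 0.0799 and 0.0715). CDH2, N-cadherin, a junction protein whose tail binds beta-catenin, measured 1176, 1169 and 1112 in CTL and 1045, 1046 and 1069 in aCT1. These groups did not overlap either, and the log2 fold change was -0.13 (SE 0.04, limma, unadjusted p = 0.0211, adjusted p = 0.691). Without CTL 1, CTL 2, aCT1 1 or aCT1 2, its unadjusted limma p was 0.0709, 0.0697, 0.0656 and 0.0588. MAPK10, a JNK kinase, was below the background limit in every sample, with 8.81, 12.96 and 15.1 in CTL and 20.02, 19.9 and 15.3 in aCT1 (log2 fold change 0.61, limma, unadjusted p = 0.048, adjusted p = 0.716). The unadjusted p of MAPK10 was 0.0728 in edgeR, 0.203 in DESeq2 and 0.072 in limma with a variance trend. Leaving out CTL 1 lowered its log2 fold change to 0.39 (limma, unadjusted p = 0.0726), and the unadjusted p was 0.0784, 0.125 and 0.127 without CTL 2, aCT1 1 and aCT1 2.

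Among the 17 target genes with a row, 12 were above background and 0 had an unadjusted limma p under 0.05, whereas 1 of the 17, CCND1, did in edgeR and in DESeq2, beside 9.37% and 6.2% of all genes. CD44, a hyaluronan receptor, had the highest mean at 44079 (log2 fold change -0.03), followed by the AP-1 subunit FOSL1 at 12913 (-0.06) and the cell cycle gene CCND1 at 10625 (0.07, edgeR unadjusted p = 0.0238, adjusted p = 0.353). These 3 genes are also driven by other pathways. AXIN2, another target, was at background as described above, and the activity of the beta-catenin branch was not tested. In the list of genes for beta-catenin turnover, 7 of 7 with a row were above background, and limma, edgeR and DESeq2 each gave 0 with an unadjusted p under 0.05. SKP1 and RBX1, parts of the ubiquitin ligase that takes up phosphorylated beta-catenin and many other proteins, had log2 fold changes of 0.03 and 0.05, and PPP2R1A, the scaffold of the phosphatase PP2A, had -0.02.

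The remaining lists held small differences as well. In the panel's own Wnt annotation, 19 of 20 genes outside the 22 were above background, led by SKP1, FOSL1 and RBX1, and 0 had an unadjusted limma p under 0.05, with 2 of the 20 in edgeR (CCND1 and EP300) and 1 in DESeq2 (CCND1), where the shares of all genes were 9.37% and 6.2%. On the receptor side, 2 of 23 listed genes had a row: CXXC5, a regulator of Dishevelled, with a mean of 4016 and a log2 fold change of 0.03, and WIF1, a secreted Wnt inhibitor, at background with a mean of 12.2. Of the nuclear and cadherin partners, 5 of 5 with a row were above background. TLE3 and CDH2, described above, belong to this list, with 1 higher and 1 lower at an unadjusted limma p under 0.05. At the same threshold edgeR gave 3 of the 5 and DESeq2 2, beside 9.37% and 6.2% of all genes. The groups did not overlap for 3 of the 5, beside 14.2% of all genes. This short list was chosen with earlier results known. E-cadherin, CDH1, had a mean of 5852 (log2 fold change -0.01) and the coactivator EP300 a mean of 1556 (0.09, 95% interval -0.01 to 0.18). Of the effectors of the calcium and polarity branches, 7 of 11 with a row were above background, with PLCB4 at 3082, ROCK2 at 2387 and RAC3 at 1489, and each of these 3 had a log2 fold change of 0.00 to 2 decimals.

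**Figure D5:**
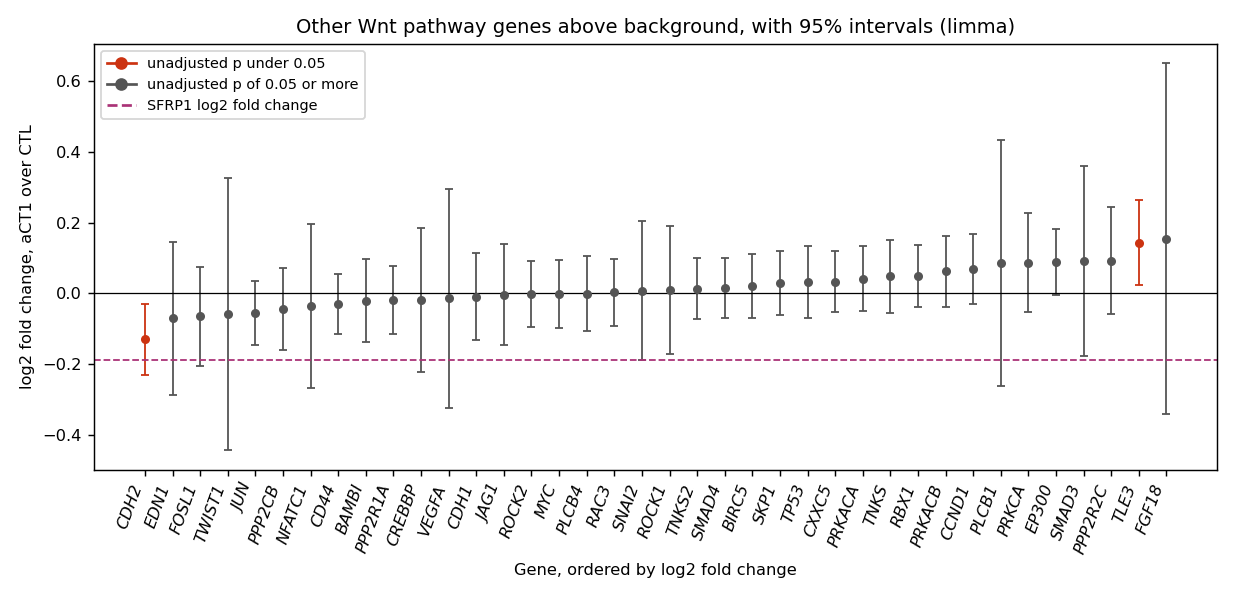
Log2 fold change (aCT1 over CTL) with its 95% limma interval for the 38 other Wnt pathway genes above background, ordered by value, where the dashed line marks SFRP1 at -0.19. The values run from -0.13 for CDH2 to 0.15 for FGF18, and TLE3 and CDH2 are the genes whose interval excludes 0.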

How the data were processed

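Total RNA from 3 CTL and 3 aCT1 samples was counted with the nCounter Breast Cancer 360 panel of barcoded probes. Per the labels, RNA was isolated with a column kit. With nSolver 4.0, the authors scaled the probe counts by housekeeping genes, and the deposited table holds the result as a linear signal and as log2 values. No background subtraction is named in the sources used here. Low signals were whole multiples of 1 step per sample for 100% of values (tolerance 0.001), which gave the recovered counts and totals.

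Groups were taken from the sample labels. The deposited log2 values of all 758 genes were fitted with limma 3.58.1 in R 4.3.3 without a variance trend or a pairing, with two-sided p-values and Benjamini-Hochberg adjustment over the 758 genes. Normalized counts above the mean plus 2 SD of 20 immune markers in each sample counted as above background. Ratios were compared by exact permutation over samples. Alternatives were a variance trend, fits without moderation, edgeR 4.0.16 and DESeq2 1.42.0 on the recovered counts, an added pseudocount (1 or 10), quantile normalization, median centring, only genes with means of 50 or more, the 459 genes that the study lists, a replicate block, other background limits and leaving out each sample. The 459-gene fits with a variance trend or edgeR, the ratios to single genes and the subtraction of the immune mean were added after seeing the data. Scripts were tested on simulated data.

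The genes and lists were chosen with earlier results of these data known. Every gene that the rule took is accounted for, and of the other lists those with an unadjusted p under 0.05 and the 3 with the highest mean are named. All 22 symbols matched RefSeq symbols.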

Additional observations from a re-analysis of the deposited data

How the results depend on the processing

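The log2 fold change of SFRP1 stayed below 0 in 20 of 20 alternatives, from -0.28 with median centring to -0.15 with quantile normalization, and from -0.22 to -0.15 when each sample was left out. Its unadjusted p was under 0.05 in 19 of them, and its adjusted p passed in 3, each with a value of -0.19: DESeq2 (adjusted p = 5.23e-04) and, over the 459 genes that the study lists, limma with a variance trend (adjusted p = 0.0139) and edgeR (adjusted p = 0.0112). The range of adjusted p over all 20 was 5.23e-04 to 0.898. The number of Wnt genes with an unadjusted p under 0.05 was 2, and became 1, namely SFRP1, without moderation, with edgeR, DESeq2, median centring, a mean of at least 50 and all 3 fits of the 459 genes, and 1 to 3 when each sample was left out (1, SFRP1, without CTL 2, and 3, with FZD10 and WNT11 but not WNT5A, without CTL 3). WNT5A was not tested with a mean of at least 50 or among the 459 genes, and kept an unadjusted p under 0.05 without CTL 1 and without aCT1 2. With a variance trend the count was 2, SFRP1 and WNT11. Under the replicate block (sample number as a factor), the count was 1, WNT5A, and SFRP1 had an unadjusted limma p of 0.051 with the same log2 fold change of -0.19. The count of other Wnt pathway genes was 3, and 2 with median centring (CDH2 and SOX9), 0 with the replicate block and 0 to 4 when each sample was left out (0 without CTL 2 or aCT1 2, 1 without CTL 1 or aCT1 1). The labels state no pairing by replicate number. After the group mean of each gene was subtracted, correlations of the remaining log2 deviations between same-numbered samples were 0.078, 0.192 and -0.231. They were taken over the 433 genes with means of 50 or more. With 3 samples a group, these values cannot exclude a pairing. The cause of these shifts was not tested.

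AXIN1 turned to -0.052 with median centring, and lay between -0.0061 and 0.077 when each sample was left out. In the same way GSK3B lay between -0.026 and 0.0014 and WNT5B between -0.051 and 0.0012. The change of SFRP1 against the other expressed Wnt genes was -0.16, and moved to -0.23 against AXIN1 alone and -0.075 against FZD7 alone, with -0.19 to -0.11 when each sample was left out. The number of Wnt genes above background was 6 to 9, the latter, with DKK1, WNT5A and FZD8, at 20 or more counts in each sample. Over all genes, 34 of 48 calls (70.8%) were higher after aCT1, against 14.8% with median centring, which moved the median log2 fold change from 0.02 to -0.08, and 51.7% with quantile normalization. All-gene counts ran from 35 with the replicate block to 71 with edgeR.

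Few counts limit the precision of the 16 genes under the limit, and for FZD7 and WNT7B the counting error was also at least as large as the fitted SE. Each group held 3 samples.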
